A study of Homo sapiens with 4 samples.

Results

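MiR-221-3p and miR-222-3p are the main products of a pair of neighbouring microRNA (miRNA) genes, and both were listed in each of the 4 small RNA libraries examined here. They are 2 of the 1474 miRNAs with at least 1 count in at least 1 library. The pair (hsa-miR-221-3p and hsa-miR-222-3p in the count tables) was selected on the counts themselves, miR-222-3p being the most abundant miRNA of one library, that of HCT116-R, so the levels of both miRNAs are given as a description, without a test. HCT116 and RKO, both established from human colorectal cancers, were sequenced as the untreated parental lines. HCT116-R and RKO-R are the acquired radioresistant lines derived from them with X-ray fractions of 4 Gy adding up to 40 Gy, and they were then cultured unirradiated for 3 weeks or longer. Each line was sequenced as 1 library (n = 1), so no difference has a replicate check, and the methods do not say whether a radioresistant line is a single clone or a mixed population. All 95% confidence intervals cover counting error only. The reads were amplified by PCR, and the sources do not state whether the molecular identifiers of the libraries were used. If PCR copies were counted, the intervals are too narrow even for counting error.

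A miRNA is cut from a hairpin transcript, and one arm of the hairpin, the guide strand, is loaded into an Argonaute protein, while the other arm is mostly degraded. Bases 2 to 8 of the guide, the seed, pair with target mRNAs and largely decide which mRNAs are repressed. MiR-221 and miR-222 are known for repressing the cell cycle inhibitors CDKN1B and CDKN1C, the receptor KIT and the pro-apoptotic gene BBC3 (PUMA), and they are counted among the oncogenic miRNAs of many epithelial tumours. No mRNA or protein was measured in these libraries.

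The mature sequences, taken from RefSeq (GRCh38.p14), are shown 5′ to 3′ with the seed in capitals, because the shared seed is what places both miRNAs in one family.
miR-222-3p: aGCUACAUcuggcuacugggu
miR-221-3p: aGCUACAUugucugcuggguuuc
miR-222-5p: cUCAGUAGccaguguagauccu
The third sequence is the opposite arm of the MIR222 hairpin, whose seed differs. MiR-222-3p has 21 bases and miR-221-3p has 23, and their first 8 bases are identical. Aligned from base 1 without gaps, 11 of the 21 positions compared were identical. The sequences differ beyond the seed, but the stretch cugggu near the 3′ end is in both and offset. A count without gaps therefore understates their likeness. Among the miRNAs in the RefSeq table, none other than these 2 has the seed GCUACAU.

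Both hairpins lie on the minus strand of chromosome X, 748 bases apart. MIR222 lies at chrX:45747015-45747124 and MIR221, downstream of it, at chrX:45746157-45746266, each 110 bases long. Both are inside the annotated long non-coding gene MIR222HG (GENCODE release 29, GRCh38), which spans 45745211 to 45770274 on the same strand, and neither overlaps one of its exons. They are therefore intronic to this host transcript and are generally taken to be made from a common primary transcript.

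The library totals lay between 6818497 counts in HCT116-R and 7140460 in RKO, and 992 to 1198 miRNAs were listed per library. A total of 3 counts, taken as the smallest level these depths can show, was 0.420 to 0.440 CPM (counts in every 1000000 counts of the library). As a check of the cell type, 6 epithelial miRNAs (the miR-200 family and miR-203a-3p) summed to 58962 to 63312 CPM in HCT116 and HCT116-R and to 10242 to 11799 CPM in RKO and RKO-R, with none at 0. In RKO, miR-200c-3p had 90.9 CPM and miR-141-3p had 2.38 CPM, against 42717 and 972 CPM in HCT116. Of 3 intestinal epithelial miRNAs, miR-215-5p was at 0 in HCT116, RKO and RKO-R and had 3 counts in HCT116-R, and the 3 summed to 268 to 443 CPM. MiR-126-3p, best known from endothelium, which also expresses miR-221 and miR-222 strongly, had 3949, 3452, 8331 and 8018 CPM in HCT116, HCT116-R, RKO and RKO-R.

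MiR-222-3p was among the 3 most abundant miRNAs of every library. It had 714088 counts in HCT116, which was 10.5% of the library (95% Wilson confidence interval 10.4% to 10.5%) and rank 3. In HCT116-R it had 1003826 counts, 14.7% of the library (14.7% to 14.7%) and rank 1. In RKO it had 936559 counts, 13.1% (13.1% to 13.1%), at rank 2, and in RKO-R it had 587757 counts, 8.50% (8.48% to 8.52%), at rank 3. The order was thus HCT116-R, RKO, HCT116 and RKO-R, and the radioresistant libraries held both the highest and the lowest level. The intervals of neighbours in this order did not overlap, but the spread between cultures of one line is not known. In RNA pooled from a whole culture, a higher level per cell and a larger share of cells with that level cannot be told apart.

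MiR-221-3p was much less abundant and its levels had another order. It had 28537 counts (4182 CPM, rank 35) in HCT116 and 24266 counts (3559 CPM, rank 39) in HCT116-R. It had 42943 counts (6014 CPM, rank 31) in RKO and 34391 counts (4975 CPM, rank 36) in RKO-R. Both RKO libraries were above both HCT116 libraries, and each radioresistant library was below its parental library on the CPM scale. Both are mature miRNAs of nearly equal length, so their counts are set side by side without a correction for length, but the efficiency with which each sequence is ligated and amplified was not measured.

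**Figure D1:**
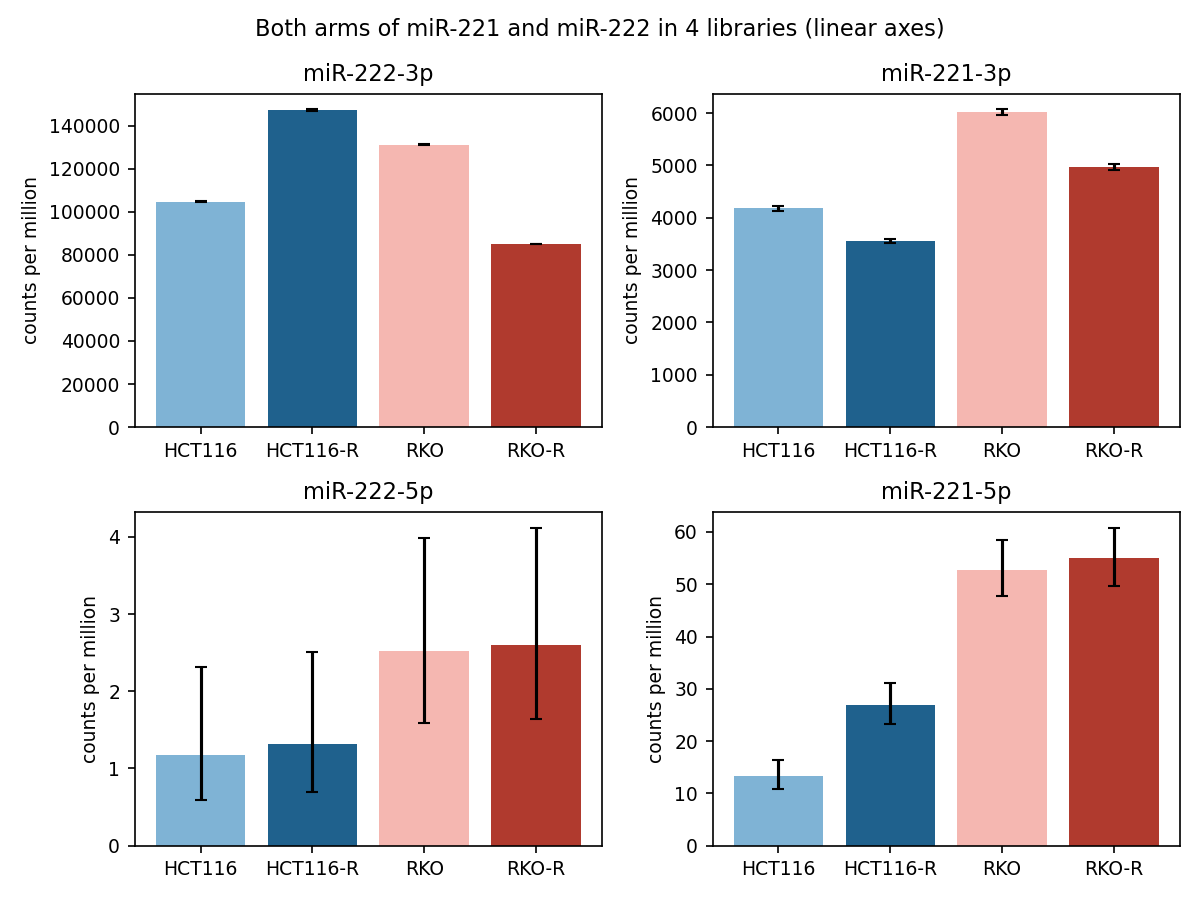
Level of each arm of miR-222 and miR-221 in CPM (linear axes from 0, with a different range in each panel) in the 4 libraries, 1 bar per library, with 95% Wilson intervals for counting error. MiR-222-3p spans 85020 to 147221 CPM and is highest in HCT116-R, whereas miR-221-3p spans 3559 to 6014 CPM and is highest in RKO.

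Irradiation history was compared within each cell line. MiR-222-3p was 1.41-fold higher in HCT116-R than in HCT116 (counting interval 1.40 to 1.41), a log2 fold of 0.49 in CPM. In the RKO pair its level differed the other way, 1.54-fold lower in RKO-R than in RKO (1.54 to 1.55), a log2 fold of -0.63, or -0.39 with TMM scaling and -0.26 with the size factors of DESeq2. In share of the library these differences were 4.26 percentage points upward in HCT116-R and -4.61 percentage points in RKO-R. MiR-221-3p was 1.18-fold lower in HCT116-R (1.16 to 1.20) and 1.21-fold lower in RKO-R (1.19 to 1.23). The log2 folds were -0.23 and -0.27, and the latter turned to 0.087 with the size factors of DESeq2.

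Neither miRNA reached a 2-fold difference in either pair. For the HCT116 pair, 639 miRNAs reached 10 counts in a library, and 26.0% of them were at least 2-fold apart, 16.6% being higher and 9.39% lower in HCT116-R. For the RKO pair 539 miRNAs did so, and 33.6% of them were at least 2-fold apart, 9.65% being higher and 23.9% lower in RKO-R. Of the miRNAs at least 2-fold apart in the RKO pair, 28.7% were higher, and this share was 38.9% with TMM scaling and 44.4% with DESeq2 size factors. The difference of miR-222-3p was not large against the other miRNAs, since 50.2% of those in the HCT116 pair and 46.8% of those in the RKO pair, miR-222-3p included, had a log2 fold of at least its size. Of the miRNAs with at least 10000 counts in a library of the pair, for which counting error is small, 20 of 57 in the HCT116 pair and 14 of 62 in the RKO pair had a log2 fold of at least the size of that of miR-222-3p, again with miR-222-3p included.

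The median log2 fold of all miRNAs was 0.02 for HCT116-R and -0.27 for RKO-R. Among all 539 miRNAs of the RKO pair, miR-221-3p stood in the middle, with 272 miRNAs above it and 266 below. The miRNAs with at least 10000 counts in a library of the pair, which include miR-221-3p, had medians of -0.10 for HCT116-R and 0.05 for RKO-R. In the RKO pair the log2 fold of miR-221-3p, -0.27, was thus below the median of these abundant miRNAs. Of these 62, 38 had a log2 fold of at least its size, miR-221-3p included. MiR-222-3p had 190 of the 639 miRNAs above it in the HCT116 pair and 177 of the 539 below it in the RKO pair.

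**Figure D2:**
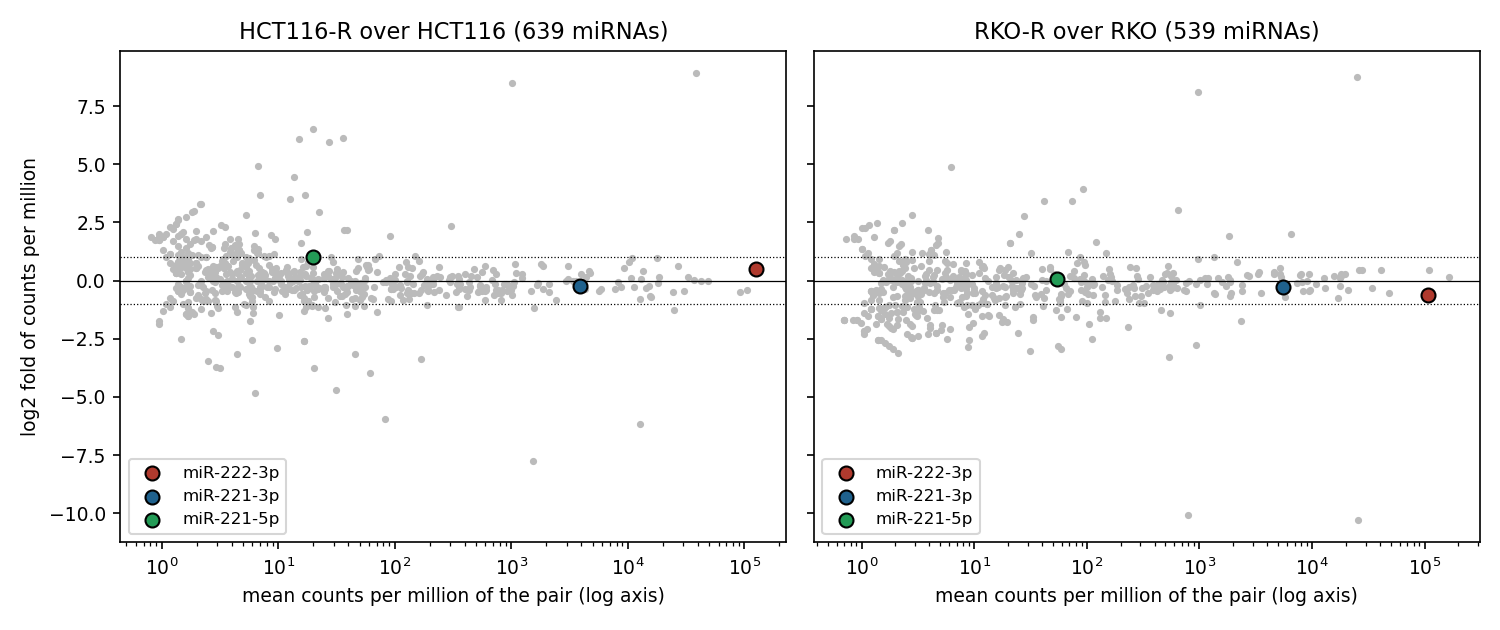
Log2 fold of CPM, radioresistant over parental, against the mean CPM of the pair (log axis), for each miRNA with at least 10 counts in a library of the pair, with dotted lines at a 2-fold difference. MiR-222-3p lies at the abundant end at 0.49 for HCT116-R and -0.63 for RKO-R, and miR-221-3p lies close to 0 in both, at -0.23 and -0.27.

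The cell lines were then compared at matched irradiation history. In the parental lines miR-222-3p was 1.25-fold lower in HCT116 than in RKO (log2 fold -0.33), whereas in the radioresistant lines it was 1.73-fold higher in HCT116-R than in RKO-R (log2 fold 0.79). MiR-221-3p was lower in the HCT116 line in both settings, 1.44-fold between the parental lines (log2 fold -0.52) and 1.40-fold between the radioresistant lines (log2 fold -0.48). The lines differed widely in other miRNAs. Between HCT116 and RKO, 59.9% of 653 miRNAs were at least 2-fold apart, 35.4% being higher and 24.5% lower in HCT116. Between HCT116-R and RKO-R, 58.3% of 652 were so, 43.6% being higher and 14.7% lower in HCT116-R. Of the miRNAs at least 2-fold apart between the radioresistant lines, 74.7% were higher in HCT116-R, or 63.8% with DESeq2 size factors.

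The ratio of miR-222-3p to miR-221-3p needs no scaling, because both counts come from one library. There were 25.02 counts of miR-222-3p for each count of miR-221-3p in HCT116 (24.7 to 25.3) and 41.4 in HCT116-R (40.8 to 41.9). In RKO there were 21.8 (21.6 to 22.0), and in RKO-R 17.1 (16.9 to 17.3). The ratio was thus highest in HCT116-R and lowest in RKO-R, with the parental lines between them. MiR-221-3p made up 3.84%, 2.36%, 4.38% and 5.53% of the summed counts in HCT116, HCT116-R, RKO and RKO-R, so the family was almost wholly miR-222-3p in all 4 libraries. From parental to radioresistant, the log2 ratio shifted by 0.73 (0.70 to 0.75) in the HCT116 pair and by -0.35 (-0.37 to -0.33) in the RKO pair.

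This shift was set beside those of other miRNAs encoded together at single loci. Of 21 such pairs listed, 13 had at least 100 counts of both miRNAs in every library. Their absolute log2 shifts had a median of 0.25 in the HCT116 pair, with a range from 0.02 to 0.86, and 1 of the 13 exceeded the 0.73 of miR-222-3p and miR-221-3p. That pair was miR-182-5p with miR-183-5p, sensory organ and tumour associated miRNAs of one cluster. In the RKO pair the median was 0.33 and the range 0.01 to 2.48, and 5 of the 13 exceeded the 0.35 of miR-222-3p and miR-221-3p. A shift of this size between miRNAs of one locus was therefore not confined to MIR221 and MIR222, but in the HCT116 pair only the cluster of miR-183-5p exceeded it. The next largest shift of the 13 there, 0.53, was that of miR-96-5p with miR-183-5p, of the same cluster. The 13 pairs are not independent, since miR-25-3p, miR-183-5p and miR-99b-5p each stand in 2 of them.

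**Figure D3:**
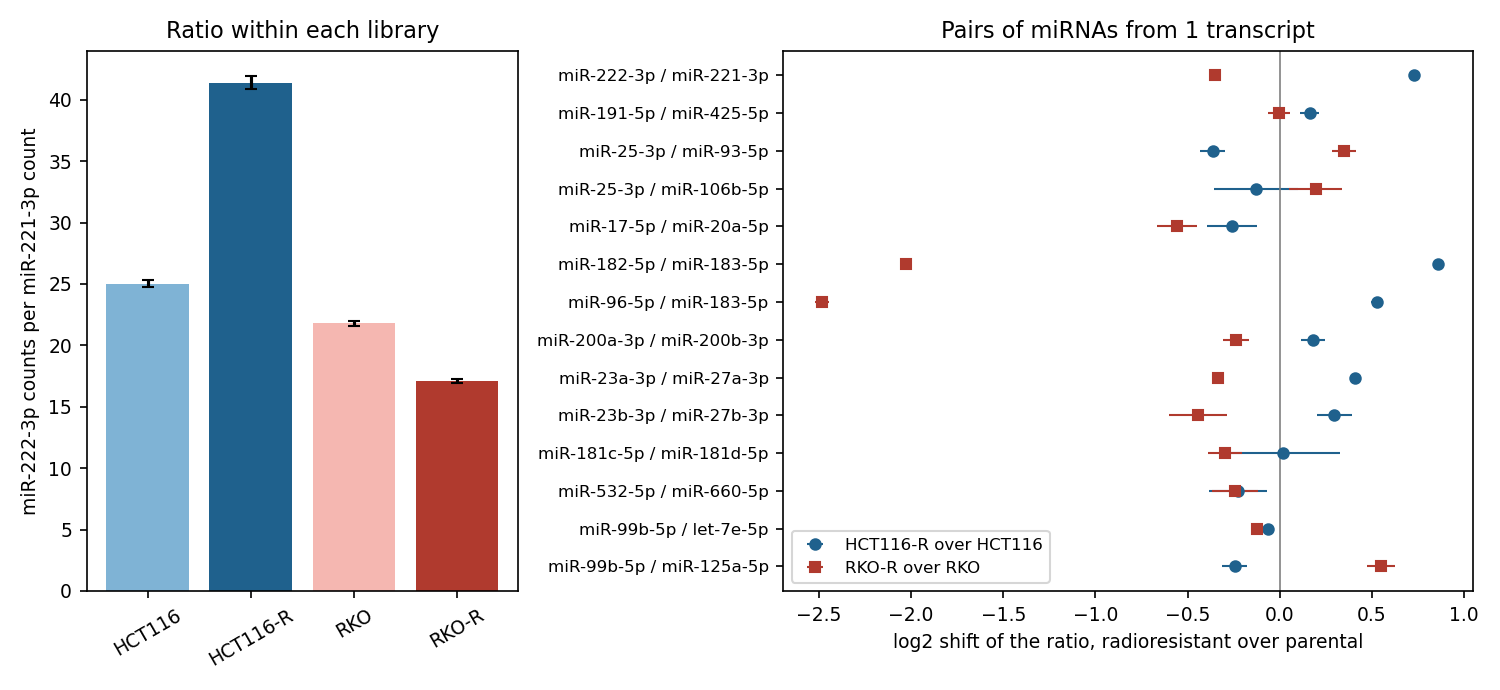
Left, counts of miR-222-3p per count of miR-221-3p in each library, with exact 95% intervals for counting error. Right, the log2 shift of the ratio from parental to radioresistant for miR-222-3p over miR-221-3p and for 13 other pairs of miRNAs from 1 locus, with 95% counting intervals, where the top pair lies at 0.73 for HCT116-R and -0.35 for RKO-R.

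The opposite arms of both hairpins were rare. MiR-221-5p had 91 counts (13.3 CPM) in HCT116 against 183 (26.8 CPM) in HCT116-R, and 377 (52.8 CPM) in RKO against 380 (54.97 CPM) in RKO-R. It was 2.01-fold higher in HCT116-R than in HCT116 (1.56 to 2.62) while miR-221-3p from the same hairpin was lower, and it was 3.96-fold lower in HCT116 than in RKO (3.14 to 5.03). Of all 639 miRNAs, 16.6% were at least 2-fold higher in HCT116-R. In the RKO pair it differed by 1.04-fold, with an interval from 0.900 to 1.20. MiR-222-5p was rarer still, with 8 counts (HCT116), 9 counts (HCT116-R) and 18 counts in each RKO library. Its counting intervals for the radioresistant over the parental level ran from 0.386 to 3.35 and from 0.507 to 2.10, so a difference of up to about these sizes was not detectable at this depth.

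The arms of MIR222 were divided far more unevenly than those of MIR221. MiR-222-5p made up 1.12, 0.897, 1.92 and 3.06 of every 100000 counts of its hairpin in HCT116, HCT116-R, RKO and RKO-R, whereas miR-221-5p made up 0.318%, 0.748%, 0.870% and 1.09%. A total of 76 hairpins had at least 1000 counts of both arms together in every library, and in 4 to 6 of them, depending on the library, the rarer arm had no count. The depth of those hairpins does not allow them to be ordered against MIR222, except for 1 in RKO-R. Of the hairpins with counts of both arms, 1 had a smaller share of the rarer arm than MIR222 in HCT116-R and 0 had one in the other libraries. MIR221 stood near the middle of the 76, with 32 to 41 below it. The ratio of miR-221-5p to miR-221-3p was 2.36-fold higher in HCT116-R than in HCT116 (1.84 to 3.04), a log2 shift of 1.24. For comparison, the other 75 hairpins had log2 shifts of the 5p over the 3p arm from -7.55 to 2.08 in that pair. Their median was 0.09, and 5 of them had a shift of at least the size of that of MIR221. Counts under 3 were set to 3 here. The lowest shift was that of MIR423, where miR-423-5p had a log2 fold of -7.77. MiR-3184-3p, whose primer in the paper is the reverse complement of part of that for miR-423-5p, had 8.50. Whether the shift of MIR423 is one of arm use was not tested. The 36 hairpins with at least 100 counts of each arm ranged from -1.09 to 1.23. In the RKO pair the shift of MIR221 was 0.33 (0.13 to 0.54), and 53 of the 75 had a shift of at least that size.

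The counts were also summed over miRNAs with the same seed, since these can pair with the same sites. Sequences were found for 881 to 1065 of the listed miRNAs per library, which held 96.4% to 97.5% of the counts. The seed of miR-221-3p and miR-222-3p held 10.9% of HCT116, 15.1% of HCT116-R, 13.7% of RKO and 8.999% of RKO-R. It was the fourth most abundant seed in HCT116, the first in HCT116-R, the second in RKO and the third in RKO-R. The seed of miR-100-5p was the first in HCT116, with 12.6% of the counts, and the third in HCT116-R, with 9.27%, but held 3.02% of RKO and 3.52% of RKO-R. The seeds of the let-7 family and of miR-21-5p were among the 4 most abundant of each library and are shown in capitals, to mark how they differ from that of miR-222-3p.
let-7i-5p: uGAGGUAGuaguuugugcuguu
miR-21-5p: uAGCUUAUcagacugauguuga
The 9 listed miRNAs of the let-7 seed, a family that represses RAS genes and other growth regulators, held 12.3% of HCT116, 12.6% of HCT116-R, 26.4% of RKO and 30.7% of RKO-R. That seed was therefore above that of miR-222-3p in HCT116, RKO and RKO-R and below it in HCT116-R.

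**Figure D4:**
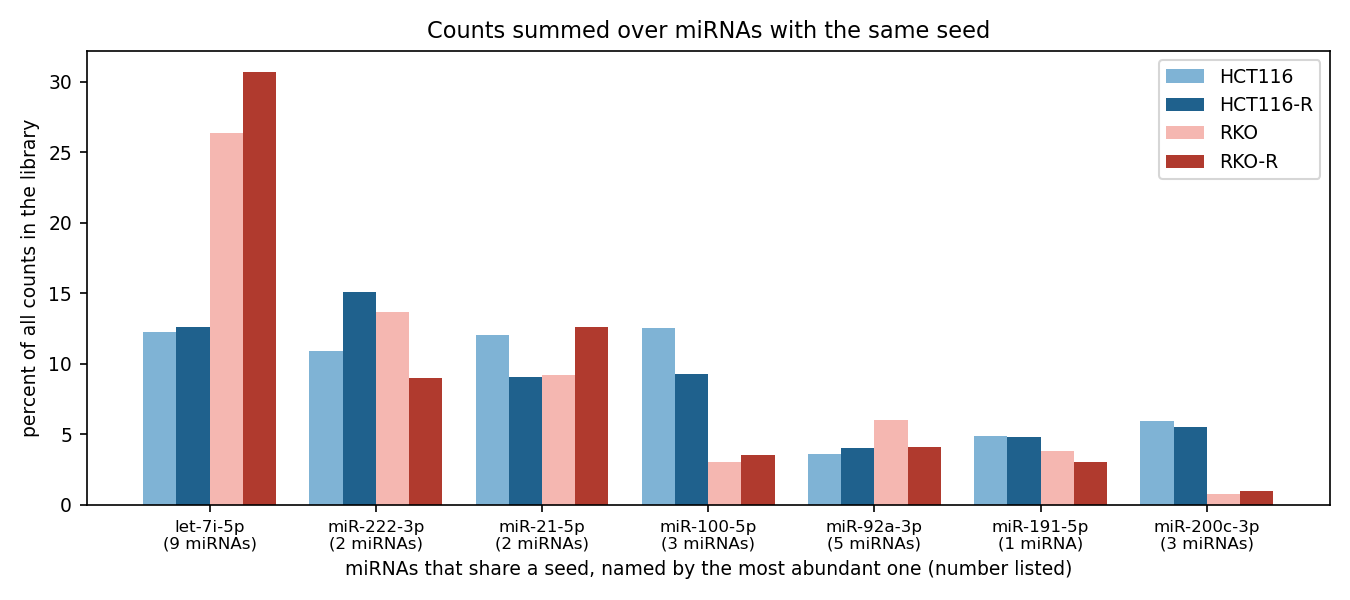
Percent of all counts in each library (linear axis from 0) summed over miRNAs with the same seed, for 7 abundant seeds. The seeds were taken by their counts over all libraries, and each is named by its most abundant miRNA with the number of listed miRNAs. Not drawn are the seeds of miR-3529-3p, with 7.69% of HCT116-R and 5.01% of RKO-R, and of miR-7-5p, with 5.14% of RKO. The seed of miR-222-3p holds 15.1% of HCT116-R, the highest bar of that library, and 8.999% of RKO-R.

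Among the 10 most abundant miRNAs of HCT116-R, the next after miR-222-3p was miR-21-5p, an oncogenic miRNA of many tumours, at 9.05% of the library. MiR-21-5p held 12.0% of HCT116, 9.22% of RKO and 12.6% of RKO-R, so its log2 folds, -0.41 for HCT116-R and 0.45 for RKO-R, had the opposite signs to those of miR-222-3p. MiR-100-5p, a miRNA that represses MTOR, had -0.51 and 0.30, and miR-26a-5p, which represses EZH2, had -0.45 and 0.44. MiR-92a-3p, of the cluster that also encodes miR-17-5p, had 0.16 and -0.54, the signs of miR-222-3p. The other 5 were miR-3529-3p, miR-191-5p, miR-200c-3p, let-7a-5p and let-7i-5p. MiR-3529-3p held 7.69% of HCT116-R against 0.0159% of HCT116, and 5.01% of RKO-R against 0.0116% of RKO. MiR-7-5p differed the other way, with 0.0349% of HCT116-R against 2.52% of HCT116, and 0.00411% of RKO-R against 5.14% of RKO. The paper's primer for miR-3529-3p is the reverse complement of a stretch of its primer for miR-7-5p. Whether reads of one locus were assigned to different strands in parental and radioresistant libraries was not tested. Shares of one library sum to a whole, so these values are not independent of that of miR-222-3p, and the part of miR-3529-3p in it was not tested.

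Markers of mesenchymal, endothelial, blood and liver cells were below the summed epithelial miRNAs in every library. The endothelial miR-126-3p came nearest, with 8331 CPM against an epithelial sum of 10242 CPM in RKO, and 8018 against 11799 CPM in RKO-R. In HCT116, however, the mesenchymal sum of 342 CPM was close to the 338 CPM of the intestinal epithelial miRNAs. The 4 mesenchymal miRNAs (miR-143-3p, miR-145-5p, miR-199a-5p and miR-214-3p) summed to 342 CPM in HCT116 and 157 in HCT116-R, and to 7.14 in RKO, where 3 were at 0, and 90.8 in RKO-R. This sum was thus lower where miR-222-3p was higher within each pair, and its part in the result was not tested. The 5 blood miRNAs summed to 5.50 to 40.01 CPM, and the erythroid miR-144-3p had at most 2 counts. MiR-122-5p, the hepatocyte miRNA, had 2.60 to 82.1 CPM.

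The miRNAs whose levels varied most like those of the pair were sought among 105 others with at least 1000 counts in every library. Likeness was the largest gap, over the 4 libraries, between log2 CPM profiles centred on their own means, and with 4 points it is only a description. MiR-96-5p was nearest to miR-222-3p, with a gap of 0.13 and levels of 2407, 3712, 2778 and 2017 CPM in HCT116, HCT116-R, RKO and RKO-R. MiR-625-5p (0.20), miR-125a-5p (0.20), miR-1307-3p (0.33) and miR-99b-3p (0.35) came next. MiR-532-5p was nearest to miR-221-3p, with a gap of 0.05 and levels of 1777, 1550, 2578 and 2245 CPM. It was followed by miR-484 (0.12), miR-19b-3p (0.15), miR-140-5p (0.17) and miR-3615 (0.20). MiR-221-3p itself was only number 52 in order of likeness to miR-222-3p, with a gap of 0.73.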

How the data were processed

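Small RNA of 18 to 30 nt from HCT116, HCT116-R, RKO and RKO-R was ligated to adapters with unique molecular identifiers and read on a BGISEQ-500 instrument, as a single library for each line. The authors deposited raw read counts per mature miRNA in 4 tables, which list miRNAs with at least 1 count. The submitters' processing notes name Bowtie2 and hg38. The miRNA annotation, the use of strand and the collapsing of identifiers are not given in the sources used here. The labels gave the groups and the methods gave the doses.

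Tables were joined by miRNA name, with missing miRNAs at 0, and scaled to CPM. Shares carry 95% Wilson intervals, and ratios of counts carry exact conditional binomial intervals. Shifts of ratios carry normal intervals on the log scale. Counts under 3 were set to 3 for fold differences across all miRNAs, which were read at a 2-fold limit among miRNAs with at least 10 counts in the pair. No test was run, because no line had a replicate. The edgeR fit of the methods, with an assumed variation, was not used, and edgeR (4.0.16) and DESeq2 (1.42.0) in R 4.3.3 gave scaling factors only. Scripts were checked on simulated counts in Python 3.11.15 (scipy 1.17.1, matplotlib 3.10.9).

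The members, gene lists and naming rules were chosen with earlier results of these data known. Named were the pair, their opposite arms, the miRNAs of the same seed, the 10 most abundant miRNAs of HCT116-R, the 5 nearest in pattern, pairs encoded at single loci, and markers of cell types. A minimum of 100 counts of each arm, set for the comparison of arms, was replaced after seeing the data by 1000 counts of both arms together. The first leaves out hairpins in which an arm had few counts in a library, whatever the reason. A further list of miRNAs is not reported here. The mature sequence of miR-221-5p is not shown.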

Additional observations from a re-analysis of the deposited data

Results flagged for a closer look

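MiR-222-3p is listed here because its level differed from the parental line in opposite directions in the 2 radioresistant lines, with a log2 fold of 0.49 in HCT116-R and -0.63 in RKO-R. The ratio of miR-222-3p to miR-221-3p is listed for the same reason, its log2 shift being 0.73 for HCT116-R and -0.35 for RKO-R. Opposite signs were common: they were found for 244 of the 465 miRNAs with at least 10 counts in a library of each pair, for 6 of the 10 most abundant miRNAs of HCT116-R, miR-222-3p included, and for 10 of the 13 other pairs of miRNAs from 1 locus. With 1 library per line, neither difference between the cell lines was tested.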

How the results depend on the processing

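With 1 library per line, leaving a library out was not possible, and no difference can be separated from the spread between cultures. No paired analysis was possible because each line had 1 library and the labels give no replicate numbers. TMM scaling raised the median log2 fold of all miRNAs in the RKO pair by 0.24 and DESeq2 size factors raised it by 0.36. TMM raised that of HCT116 over RKO by 0.13, and DESeq2 size factors changed that of HCT116-R over RKO-R by -0.39.

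In the HCT116 pair, the log2 fold of miR-222-3p was 0.50 with TMM, 0.39 with DESeq2 size factors and 0.56 with library totals without both miRNAs. In the same order it was -0.39, -0.26 and -0.70 in the RKO pair, -0.20, -0.25 and -0.37 for HCT116 over RKO, and 0.69, 0.41 and 0.89 for HCT116-R over RKO-R. It kept its direction in all of these. For miR-221-3p in the HCT116 pair the values were -0.22, -0.33 and -0.16. In the RKO pair they were -0.037, 0.087 and -0.35, so the direction reversed with DESeq2 size factors, as their shift of the median is larger than the difference itself. For miR-221-3p they were -0.40, -0.45 and -0.57 for HCT116 over RKO, and -0.58, -0.87 and -0.38 for HCT116-R over RKO-R. With both arms of each hairpin summed, the ratio of miR-222 to miR-221 was 16.9 in RKO-R and stayed within its interval in the other 3 libraries.

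The number of miRNAs at least 2-fold apart in the HCT116 pair, the RKO pair, HCT116 over RKO and HCT116-R over RKO-R was 50, 62, 181 and 156 with a minimum of 100 counts, against 166, 181, 391 and 380. With a 4-fold limit it was 58, 56, 221 and 231. In the comparison of arms, 2 of the 75 other hairpins were shifted toward the 5p arm at least as far as MIR221 in HCT116-R and 33 in RKO-R, against 0 and 14 of 36 with at least 100 counts of each arm. Other scalings and a minimum of 1 count left the numbers of miRNAs at least 2-fold apart within 1.5 times.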
